A study of Sus scrofa with 44 samples.

Results

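The transcriptome and the m6A peak lists of fetal pig skeletal muscle were compared between 60 and 70 days post coitus, written E60 and E70. The comparison took 12 of the 44 samples of the study, which were 3 input and 3 m6A immunoprecipitated libraries at each age, and its levels came from the 6 input libraries. A gene was tested when its mean deposited TPM (a read count divided by transcript length and by the sum over the library) over those 6 libraries was at least 1, which kept 13191 of 22427 genes, 10667 of them with a gene symbol. To these were added the genes with a peak in the E60 list only, in the E70 list only or in both, and genes listed at exactly 0 in every library of one age were treated apart.

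The study profiled longissimus dorsi, the long muscle of the back, at 6 prenatal ages from E33 to E95, beside PK15 pig kidney cells. The labels give both groups the same tissue and differ in age, and they name no genotype, treatment or pooling for either. RNA was depleted of ribosomal RNA, and part of it was enriched with an antibody to N6-methyladenosine (m6A), while the input was sequenced without that step. The labels do not say whether the 3 libraries of an age came from separate animals, so the p-values measure only the spread between these libraries.

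Muscle fibres form in waves before birth and then fill with sarcomeres, in which myosin thick filaments pull on actin thin filaments anchored at the Z-disc. Contraction is started by acetylcholine receptors at the neuromuscular junction and by calcium released from the sarcoplasmic reticulum, and it is fuelled by glycolysis, phosphocreatine and mitochondria. m6A is a methyl mark on adenosines of messenger RNA that writer enzymes place, mostly near stop codons and in long exons, and that reader proteins bind.

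Each library summed to the same TPM total, so their depth in reads cannot be read from them and values carry no counting interval. Between 12886 and 13020 genes reached 1 TPM in the E60 libraries, and between 12515 and 12677 did so in the E70 libraries. A single unnamed gene, ENSSSCG00000032395, held 51.0 to 59.5% of all TPM at E60 and 54.6 to 61.9% at E70. Levels below are therefore TPM divided by a median-ratio size factor per library, called scaled TPM; the factors were 1.18 to 1.31 at E60 and 0.959 to 1.08 at E70. Spearman correlations across genes were 0.903 to 0.917 between libraries of the same age and 0.886 to 0.903 between ages. The first principal component of the 6 libraries held 26.9% of the variance and placed all E60 libraries between -29.0 and -22.4 and all E70 libraries between 20.3 and 35.7.

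A small share of genes passed the test of E70 against E60. With the libraries scaled by median ratio, more of these were higher at E70 than lower. In the limma fit on log2(scaled TPM + 1), 251 genes, or 1.9% of those tested, passed a Benjamini-Hochberg adjusted p of 0.05. Of these, 173 were higher at E70 (1.31% of genes tested) and 78 were lower (0.591%). The named rises included the sarcomere genes TMOD4, MYBPC2 and ACTN3, the mitochondrial genes ND1 and ND4L, and MYO3B, EGF and HMCN2, and the named falls included LRRC4, DCX, the globin HBB and the synapse kinase MUSK. For every one of the 251 genes the 3 E70 libraries lay wholly above or wholly below the 3 E60 libraries. Across all genes tested the libraries were separated upwards for 11.6% and downwards for 9.57%. The same values decided the calls, so separation in a called gene, here and below, is a description and adds no support. The median change was 0.79 on the log2 scale among the higher genes and -0.74 among the lower ones, against 0.00 over all genes tested, and the median standard error of a change was 0.16. A change above 1 on that scale was reached by 56 of the higher genes, and 20 of the lower genes fell past -1.

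**Figure D1:**
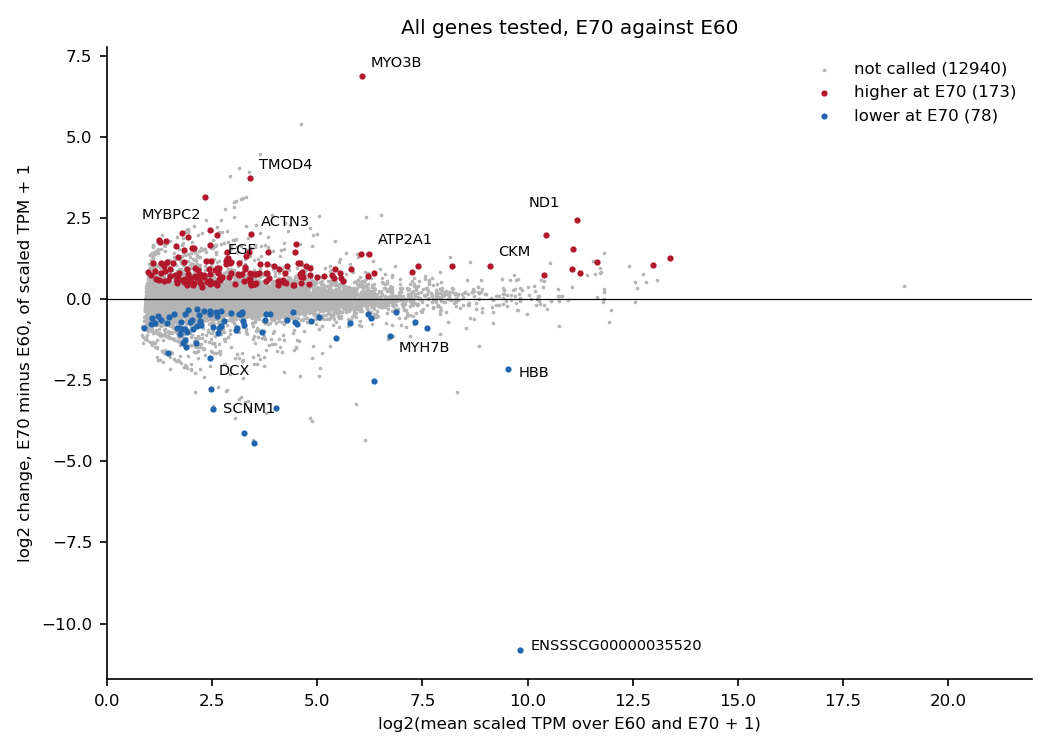
Each point is one of the 13191 genes tested, with log2 of its mean scaled TPM + 1 over the 6 input libraries on the horizontal axis and its log2 change, E70 minus E60, on the vertical axis; coloured points are the 173 genes higher and the 78 genes lower at an adjusted p of 0.05. The cloud is centred on 0.00, and the points farthest from it are MYO3B above and ENSSSCG00000035520 below.

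The number and balance of these calls depended on how the libraries were scaled. Rescaling after leaving out the pair of most abundant genes gave 381 calls, of which 55 were higher and 326 lower, so that 14.4% rather than 68.9% of calls were higher, with a median change over all genes of -0.20; 132 genes were called in both. On TPM as deposited 15 genes passed, 9 of them higher, with a median over all genes of -0.27: MYO3B, TMOD4, MYBPC2, HMCN2, EGF, FBP2, HR and CFD are the named higher ones and SCNM1 the named lower one. That fit took its spread from all 18 libraries, and its median standard error was 0.44, against 0.16 in the main fit. The 18 include E40 replicate 2 and E50 replicate 3, with size factors of 0.466 and 0.301 and 17.3% and 14.4% of TPM in ENSSSCG00000032599. On deposited TPM of the 6 libraries alone, chosen after seeing the data, 144 genes passed, 27 higher and 117 lower. With the 6 libraries fitted alone on scaled TPM 65 genes passed, of which 50 were among the 251. None of the 251 called genes had the other sign under either of these scalings, and the changes below are read against these shifts of the whole.

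Members of the sarcomere lists that passed mostly rose. Among 14 thin filament genes tested 4 rose and none fell, with a median change of 0.52, and among 21 genes of the Z-disc and M-band 5 rose and none fell, with a median of 0.49. Of 13 genes of the thick filament 2 rose and 1 fell, with a median of -0.02, against 0.00 over all genes. For these and the later lists, the shares over all genes tested were 1.31% higher, 0.591% lower and 50.7% with positive changes. On TPM as deposited the medians of the thin filament and Z-disc lists were 0.19 and 0.17, and with quantile scaling they were 0.24 and 0.44. With quantile scaling 2 thin filament genes and 6 Z-disc genes were higher, and MYL11, TNNT3, TNNC2 and MYOT lost the call. After rescaling, the thin filament list had 3 members higher and 1 lower, and the Z-disc list 1 higher.

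TMOD4, which caps the slow-growing ends of thin filaments in muscle, stood at 8.49e-07, 0 and 2.09 scaled TPM in the E60 libraries and at 19.8, 17.1 and 18.6 in the E70 libraries. Only 1 of the 3 E60 libraries held a measurable level, and all E70 libraries lay far above it. The change was 3.74 on the log2 scale with a standard error (SE) of 0.30 (limma, adjusted p = 9.16e-06). MYBPC2, the fast-fibre myosin-binding protein C, had 0.719, 1.37 and 0.974 at E60 and 8.84, 7.01 and 7.68 at E70. The lowest E70 library was thus well above the highest E60 library, and the means differed 7.67-fold (adjusted p = 6.88e-05, limma). ACTN3, the alpha-actinin of fast fibres, went from 3.37, 1.76 and 4.82 to 17.5, 11.2 and 19.2. Its groups were separate although each was uneven, with a 4.81-fold difference of means (adjusted p = 0.00551, limma).

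Abundant sarcomere genes changed by smaller factors. TPM1, a tropomyosin, was at 195 ± 42.3 (SD, n = 3) at E60 and 393 ± 45.6 at E70. TNNC2 and TNNT3, the calcium-binding and tropomyosin-binding troponins of fast fibres, were respectively 1.88-fold and 1.65-fold higher. MYL11, the regulatory light chain of fast myosin, measured 1633, 1751 and 1921 at E60 and 3515, 2737 and 3074 at E70. All of these passed in the limma fit, with adjusted p between 0.00754 for TPM1 and 0.0316 for TNNT3, and in each the E70 libraries were all above the E60 libraries. MYOZ3, which binds calcineurin at the Z-disc, rose 2.13-fold and MYOT, myotilin, 1.47-fold; NRAP and PDLIM3 completed the Z-disc calls. With the 6 libraries alone, TMOD4 and MYBPC2 passed (adjusted p = 0.046 and 0.00989, limma), ACTN3 had 0.0734 and the 4 abundant genes had 0.0734 to 0.132.

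Several of the most abundant sarcomere genes did not pass. Skeletal actin ACTA1 averaged 2340 ± 714 at E60 and 4449 ± 621 at E70 (adjusted p = 0.07, limma), and the fast troponin TNNI2 had an adjusted p of 0.066. Perinatal myosin MYH8 was at 2101 ± 543 and 3402 ± 284, with an adjusted p of 0.0843. Embryonic myosin MYH3 was at 4547 ± 829 and 3577 ± 81.9 (adjusted p = 0.495, limma). The slow troponins TNNT1, TNNC1 and TNNI1 had negative changes of -0.70, -0.15 and -0.06 that did not pass either. Myosin heavy chain genes are near-identical copies in a cluster, and how reads shared between them were divided is not given in the sources used here.

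MYH7B, a slow myosin heavy chain, was the thick filament gene that fell. It stood at 131, 178 and 128 in the E60 libraries and at 60.9, 64.7 and 69.8 in the E70 libraries, 2.24-fold lower at E70 (adjusted p = 0.00963, limma; 0.0513 with the 6 libraries alone). MYH15, a further myosin heavy chain outside that cluster, fell from 3.72 ± 0.883 to 1.5 ± 0.552 (SD, n = 3).

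**Figure D2:**
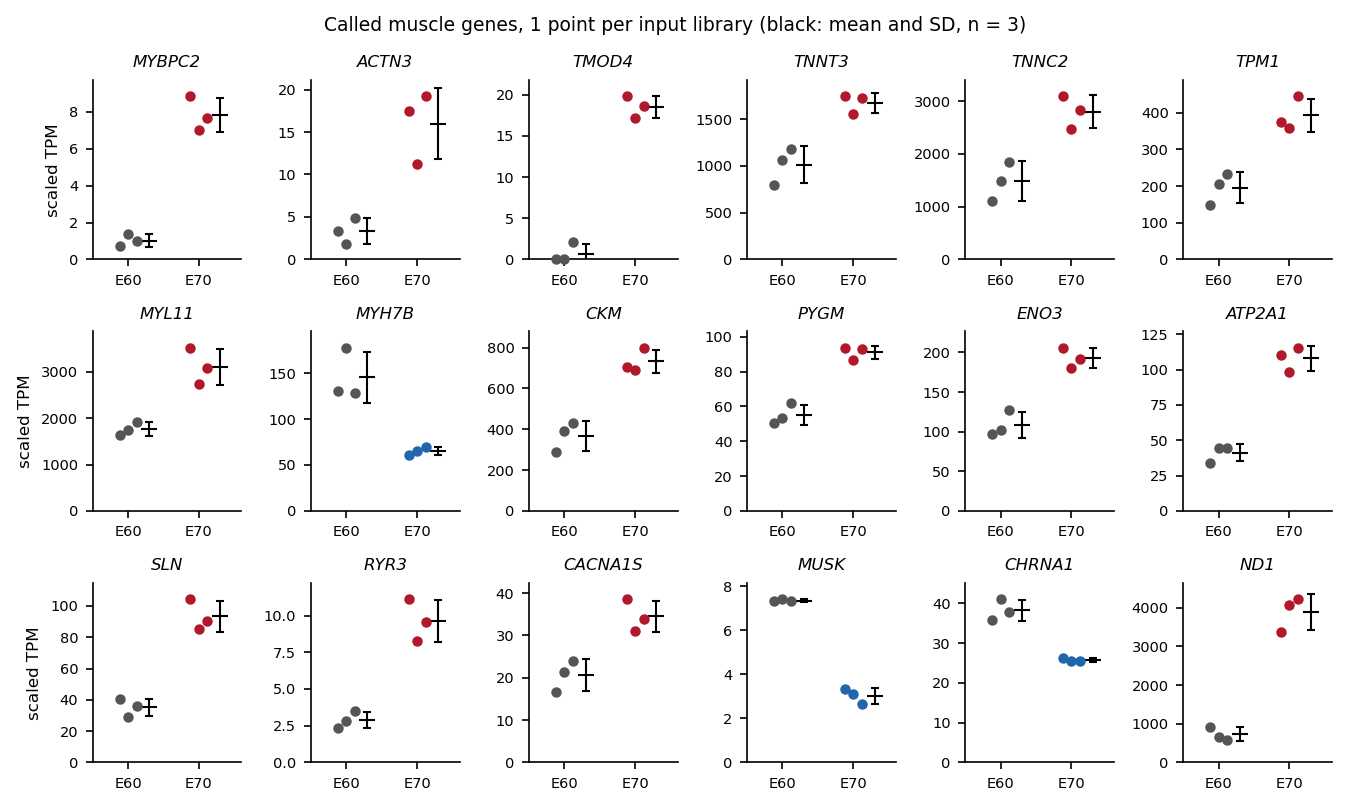
Scaled TPM of 18 muscle and energy genes in each of the 3 E60 and 3 E70 input libraries, in a panel per gene with linear axes from 0; points are libraries, bars the mean and its SD. The E70 libraries lie above the E60 libraries for every gene shown except MYH7B, MUSK and CHRNA1, where they lie below.

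Of 17 genes tested that couple the nerve impulse to contraction, 5 rose and none fell, with a median change of 0.52 (0.24 on deposited TPM), and after rescaling 4 were higher. ATP2A1, the calcium pump of fast fibres known as SERCA1, was at 34.2, 44.5 and 44.6 at E60 and at 110, 97.9 and 115 at E70. SLN, sarcolipin, an inhibitor of that pump, moved from 40.3, 29.3 and 36.1 to 104, 85.4 and 90.2. The pump and its inhibitor thus differed by almost the same factor, 2.62-fold for ATP2A1 and 2.65-fold for SLN (adjusted p = 7.16e-05 and 0.000237, limma).

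RYR3, a calcium release channel of the sarcoplasmic reticulum, measured 2.36, 2.82 and 3.49 at E60 and 11.103, 8.26 and 9.57 at E70. Each E70 library held more than any E60 library, with a 3.34-fold difference of means (adjusted p = 6.88e-05, limma). SCN4A, the sodium channel of the muscle membrane, was 2.21-fold higher and CACNA1S, the voltage sensor that opens the release channels, 1.67-fold higher. Fitted on the 6 libraries alone, ATP2A1, SLN, RYR3 and SCN4A kept an adjusted p below 0.05 and CACNA1S had 0.124.

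Genes of glycolysis, glycogen and phosphocreatine were higher at E70 in 7 of 22 tested, lower in none, with a median change of 0.53 (0.21 on deposited TPM). CKM, the muscle creatine kinase, was at 287, 391 and 429 at E60 and at 706, 691 and 799 at E70. PFKM, the muscle phosphofructokinase that commits sugar to glycolysis, measured 6.34, 7.33 and 7.94 at E60 and 12, 13.3 and 13.4 at E70. Both genes kept their libraries fully apart, at 1.98-fold (adjusted p = 0.0168, limma) and 1.79-fold (adjusted p = 0.000931).

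The remaining enzymes called were higher by similar factors. ENO3, the muscle enolase, was 1.77-fold and HK2, the insulin-responsive hexokinase, 1.78-fold higher. PYGM, the muscle glycogen phosphorylase, was 1.65-fold, UGP2, which makes the sugar donor for glycogen, 1.6-fold and PGK1 1.48-fold higher. None of the 7 passed when only the 6 libraries were fitted, where their adjusted p ran from 0.0513 for PFKM to 0.0946 for UGP2, and after rescaling 2 of them, CKM and PFKM, passed. FBP2, a muscle fructose bisphosphatase that runs against phosphofructokinase, was at 2.55e-05, 0.125 and 0.0797 at E60 and at 3.4, 2.02 and 2.62 at E70 (adjusted p = 3.62e-05, limma). It was close to 0 in all E60 libraries and present in all E70 libraries.

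Of the 13 protein genes of the mitochondrial genome 6 rose and none fell; this group was chosen after its values were seen. In this group all 13 had positive changes with the libraries scaled by median ratio, against 50.7% of all genes tested. Their median change was 1.14 (0.81 on deposited TPM, 0.93 after rescaling). On deposited TPM 0 of the 13 passed in limma, with quantile scaling 3, where ND2, CYTB and ATP8 lost the call, and after rescaling 6. Their summed level was 36979 to 48986 scaled TPM in the E60 libraries and 74679 to 90480 in the E70 libraries. Of 28 nuclear genes of oxidative phosphorylation and fatty acid oxidation none passed in either direction, and their median of 0.18 turned to -0.13 on deposited TPM and to -0.03 after rescaling; the difference between the groups was not tested.

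ND1, a subunit of respiratory complex I, was at 927, 660 and 587 at E60 and at 3367, 4075 and 4214 at E70. The difference was 5.36-fold with no overlap (adjusted p = 4.59e-05, limma; 0.291 on deposited TPM). ND2, of the same complex, went from 1196, 1065 and 1075 to 2830, 3403 and 3458. ND4L went from 543, 601 and 526 to 1649, 2546 and 2474, the first E70 library being the lowest of its group. CYTB, of complex III, and COX3, of complex IV, were 2.21-fold and 2.06-fold higher. ATP8, of the ATP synthase, was 2.36-fold higher, while ATP6, which overlaps it on the mitochondrial chromosome, had a 1.47-fold difference that did not pass (adjusted p = 0.31, limma). ND4L likewise overlaps ND4, whose 1.15-fold difference did not pass (adjusted p = 0.899), and how reads in such overlaps were divided is not given in the sources used here.

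Of 7 genes tested of the neuromuscular junction, 2 fell and none rose, with a median of -0.26. MUSK, the receptor kinase that organises the synapse, had 7.31, 7.4 and 7.31 at E60 and 3.35, 3.09 and 2.64 at E70. Its libraries were nearly equal at E60 and all lower at E70, by 2.43-fold (adjusted p = 0.00131, limma). CHRNA1, the alpha subunit of the muscle acetylcholine receptor, was at 35.8, 41.0 and 37.9 and then at 26.3, 25.6 and 25.5. This was a 1.48-fold difference (adjusted p = 0.0264, limma), and CHRNA1 missed the threshold with quantile scaling and when the 6 libraries were fitted alone (0.0644), whereas MUSK did not (0.0127).

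The transcription factors and fusion genes of myogenesis gave no call: 0 of 16 passed in either direction in the limma fit and their median change was 0.03. MYOD1 was at 104, 138 and 135 in the E60 libraries and at 143, 125 and 127 in the E70 libraries, and MYOG at 117, 159 and 193 and then at 147, 133 and 148. Both regulators had overlapping groups. MYF5, which marks early myoblasts, stood at 47.6, 85.6 and 69.4 at E60 and at 32.3, 34.0 and 45.5 at E70; its groups did not overlap but it did not pass.

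Over all genes tested 50.7% had positive changes and 0.591% passed as lower. Of 29 cell cycle and DNA replication genes 24 had negative changes, with a median of -0.17, and 1 passed. This was BUB1, a kinase of the spindle checkpoint, at 3.21 ± 0.479 at E60 and 2.02 ± 0.224 at E70 (adjusted p = 0.0316, limma). Among 21 writers, erasers and readers of m6A 1 passed: IGF2BP1, a reader that binds fetal transcripts, which fell from 4.03, 5.11 and 5.75 to 2.63, 2.34 and 2.3. Its E70 libraries were all below its E60 libraries, by 2.05-fold (adjusted p = 0.0125, limma). With the 6 libraries alone BUB1 had 0.151 and IGF2BP1 0.0692. METTL3, the catalytic writer, was at 8.28 ± 1.01 and 8.54 ± 0.537 and did not pass. Among 13 fetal growth regulators IGFBP5, a binding protein for insulin-like growth factors, was the single call, 1.65-fold lower at E70. None of 20 immediate early genes passed, and their median was -0.32. Of 33 extracellular matrix genes 1 rose, COL15A1, 1.37-fold, which lost the call with quantile scaling, with a median over the list of -0.06. Of 5 interferon response genes OAS2 rose 1.57-fold, and IRF7 was at 0 in all 6 libraries.

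Genes outside these groups held several of the largest rises. EGF, the epidermal growth factor, was at 1.62, 1.25 and 1.6 at E60 and at 9.36, 6.87 and 10.1 at E70, a 5.89-fold difference (adjusted p = 2.2e-06, limma). HMCN2, a large hemicentin of the extracellular matrix, went from 0.545, 0.736 and 0.507 to 5.38, 4.09 and 5.45. Both genes kept a wide gap between their groups. RPL3L, a ribosomal protein that replaces RPL3 in muscle, was at 0.956, 1.65 and 0.737 and then at 4.17, 6.45 and 5.16. PLIN4, a coat protein of lipid droplets, was 4.61-fold higher, DUSP26, a phosphatase, 3.46-fold, and HLA-DRA, named for its human counterpart and a chain of the class II antigen-presenting molecules, 4.81-fold. ERFE, which encodes the hormone erythroferrone, rose from 1.12, 0.3 and 0.144 to 2.44, 4.4 and 4.17. HR, a nuclear corepressor, was at 0.104, 0.334 and 0 at E60 and at 4.26, 1.6 and 3.43 at E70. The E60 levels of ERFE and HR were uneven, but none reached the lowest E70 library.

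The largest falls among named genes included neuronal genes. LRRC4, a synaptic adhesion protein of neurons, was at 8.25, 7.53 and 9.94 at E60 and at 1.67, 0 and 0 at E70. Its adjusted p was 0.0234 in limma, or 0.0644 with the 6 libraries alone. LRRC4 also missed the threshold with any single E60 library, or E70 replicate 2 or 3, left out. The zeros listed for it at E70 can be failed estimates. DCX, a microtubule protein of migrating neurons, had 8.25, 7.29 and 7.06 at E60 and 1.07, 1.78 and 1.45 at E70, 5.27-fold lower (adjusted p = 3.44e-06). In both genes every E70 library was far below every E60 library. NKAIN4, which interacts with the sodium pump, fell 4.8-fold, CYFIP2, an actin regulator, 2.78-fold, and KCND2, a voltage-gated potassium channel, 2.12-fold. Of the 5 tested genes of the nerve and Schwann cell list 0 passed, with a median of -0.15. Among them 3 had negative and 2 had positive changes. All E70 libraries lay above all E60 libraries for 2 of the 5 and below them for 0. The part of this list in the falls above was not tested. STRA6, the retinol uptake receptor, fell from 4.0, 1.92 and 6.68 to 1.25, 1.16 and 0.617, and COL22A1, a collagen of the muscle-tendon junction, from 4.58, 3.59 and 2.36 to 0.429, 2.1 and 1.0. The gap between groups was narrow in both, and their adjusted p were 0.0349 and 0.0254 in limma, or 0.196 and 0.222 with 6 libraries. CCIN, TOR1B, KIF24 and MYH15 completed the 15 named falls, at 3.55, 2.11, 2.35 and 2.49-fold.

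The red cell markers HBB and ALAS2 were lower at E70. HBB, a beta globin, measured 1689, 775 and 1169 at E60 and 155, 365 and 305 at E70, and ALAS2, the red cell enzyme that starts haem synthesis, 4.16, 3.48 and 4.37 and then 0.488, 1.24 and 1.23. The lowest E60 library was above the highest E70 library in both, at 4.4-fold (adjusted p = 0.0252, limma) and 4.06-fold (adjusted p = 0.0143), or 0.0946 and 0.0612 with the 6 libraries alone. Of 6 erythroid markers tested 2 fell and none rose, 4 did not pass, 2 of the 6 had positive changes, and the median was -1.49, and their summed level was 815 to 1741 at E60 and 175 to 393 at E70. HBM went the same way, from 25.1 ± 10.8 to 8.59 ± 5.77, and HBZ, an embryonic globin, the other way, from 0.993 ± 0.874 to 2.8 ± 2.69; neither passed. Globin genes are close copies, and in bulk tissue fewer cells of a type and less RNA per cell cannot be told apart.

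Markers of the other cell types in muscle gave few calls. Summed levels were 60.3 to 73.1 at E60 and 94.7 to 109 at E70 for macrophages and leukocytes, 16.7 to 40.2 and 37.8 to 54.1 for adipocytes, and 110 to 152 and 157 to 170 for endothelium. None of their 9, 4 and 11 tested genes passed, with medians of 0.56, 0.50 and 0.28; the endothelial median was -0.03 on deposited TPM, and ADRB3 was at 0 in all 6 libraries. Cartilage and tendon markers summed to 116 to 318 at E60 and 80.8 to 178 at E70, with a median of -0.39 over 8 genes, although HAPLN1, a link protein of cartilage matrix, rose 3.87-fold. ABCC9, a potassium channel subunit of pericytes and muscle, was the call among 9 smooth muscle and pericyte genes, and 0 of 8 fibroblast genes passed. The part of these cell types in the muscle gene results was not tested.

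**Figure D3:**
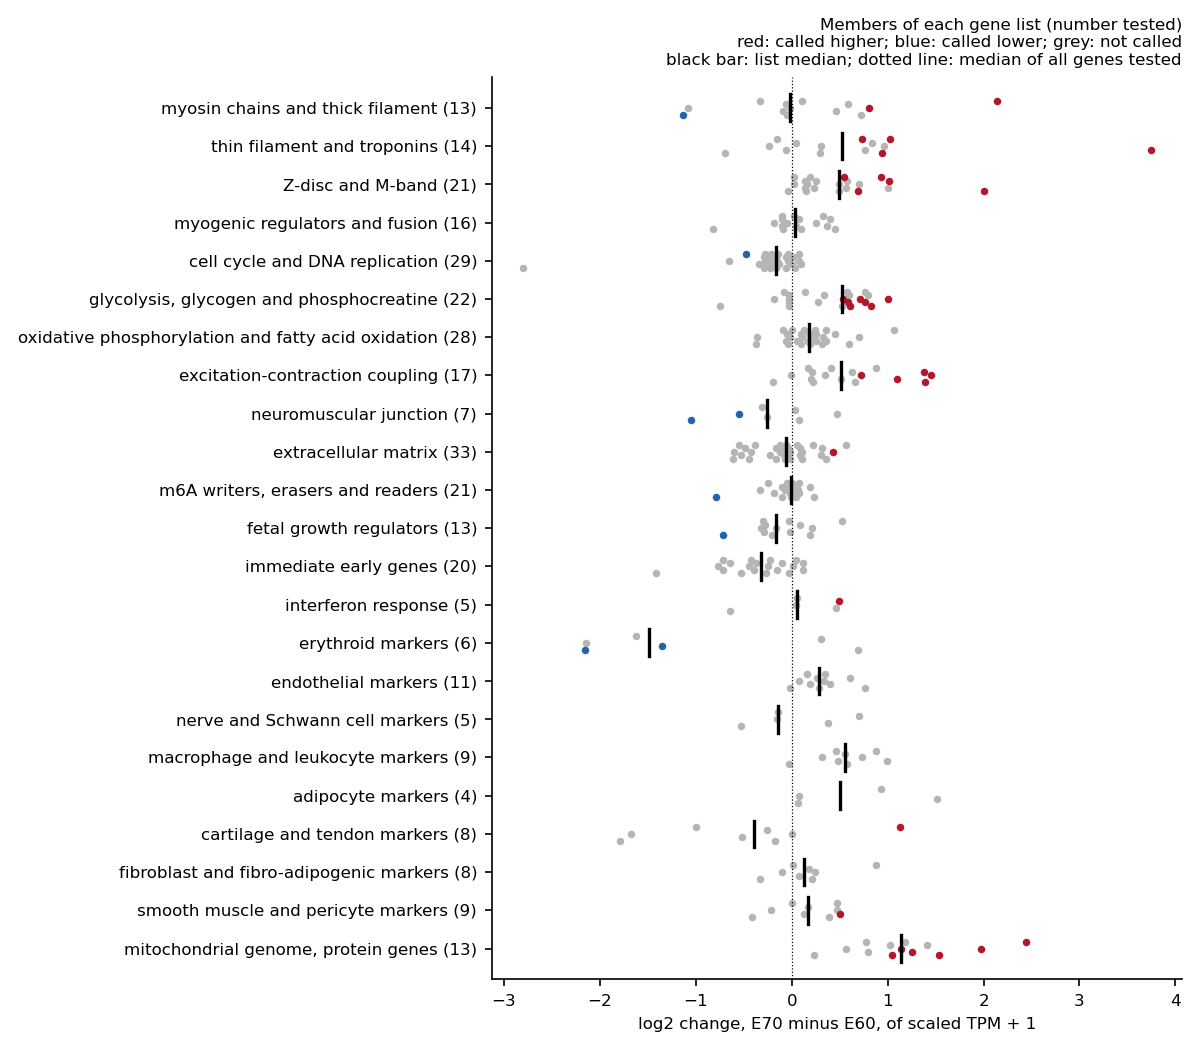
Log2 change, E70 minus E60, of every tested member of 23 gene lists, 1 row per list, with the list median as a bar and called genes coloured. The thin filament, Z-disc, coupling, glycolysis and mitochondrial lists lie mostly above 0 with medians of 0.49 to 1.14, as do the macrophage, adipocyte and endothelial lists at 0.56, 0.50 and 0.28 with no gene called, and the erythroid list has the lowest median, -1.49.

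A few genes were nearly absent on one side of the boundary. MYO3B, an unconventional myosin, was at 0.122, 0.125 and 0.128 in the E60 libraries and at 116, 154 and 127 in the E70 libraries, 1059-fold higher (adjusted p = 1.41e-15, limma). Its mean was 0.113 to 0.128 at every age from E33 to E60 and 144 at E95, so that the step fell between E60 and E70. TMOD4 was at most 0.696 on average up to E60, 18.5 at E70 and 101 at E95. SCNM1, a splicing factor whose gene (chromosome 4, 98079844 to 98082374, Sscrofa11.1) lies beside TMOD4 (98074380 to 98079346), had 8.39, 11.07 and 8.86 at E60 and was listed at 0 in all E70 and E95 libraries. The neighbouring pair thus moved in opposite directions at the same boundary. ENSSSCG00000035520, a gene without a symbol, was at 1841, 1926 and 1682 at E60 and listed at 0 in every E70 library (adjusted p = 1.41e-15, limma). ENSSSCG00000036044 was at 22.7, 17.9 and 10.6 and then at 0; its 2 E60 peaks lie in the coding sequence of GJD4, a gap junction gene, in the RefSeq annotation.

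Such steps were counted across the whole series by asking which genes had every later library apart from every earlier one. At the boundary of E60 and E70, 6 genes were higher by at least 4-fold (HMCN2, FBP2, MYO3B, TMOD4, MYBPC2 and EGF) and 3 were lower, all 3 falling from at least 1 to a listed 0. That boundary set 12 libraries against 6. From E33 to E40 (3 against 15 libraries) 14 were higher and 30 lower, 7 of them falling to 0, from E40 to E50 (6 against 12) 0 and 1, from E50 to E60 (9 against 9) 1 and 0, and from E70 to E95 (15 against 3) 13 and 9. Between E70 and E95, 3 of the 9 lower genes also fell to a listed 0, and PRR33 rose from 0. Whether libraries up to E60 and those from E70 on were processed alike is not given in the sources used here, and its part in these steps was not tested.

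Exact zeros in one age were uncommon among tested genes. At E60, 138 genes were listed at 0 in all 3 libraries, of which 2 passed: CFD, complement factor D, at 7.47, 10.2 and 6.46 at E70, and the olfactory receptor OR1K1 at 2.02, 1.73 and 4.47. At E70, 131 genes were at 0 and 4 passed, namely SCNM1, ENSSSCG00000035520, ENSSSCG00000036044 and ENSSSCG00000036599. The last, at 19.5, 19.0 and 23.2 at E60, was also 0 in most libraries of other ages, and since a listed 0 can be a failed estimate no fold is given for these genes.

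**Figure D4:**
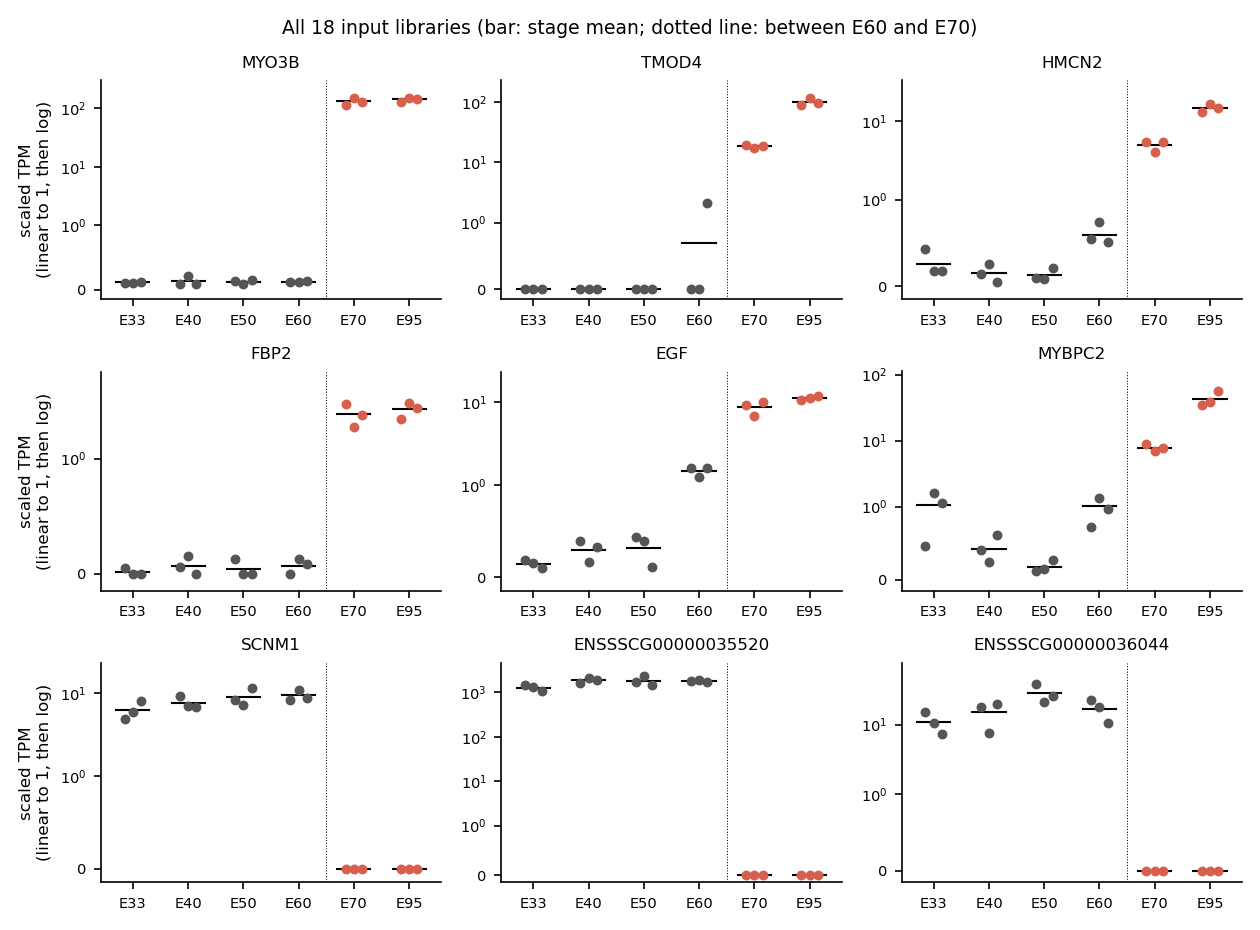
Scaled TPM of 9 genes in the 18 input libraries from E33 to E95; points are libraries and the axis is linear up to 1 and logarithmic above. MYO3B changes from about 0.125 to 132 and ENSSSCG00000035520 from 1816 to 0 between E60 and E70, while TMOD4 goes on from 18.5 at E70 to 101 at E95.

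The ages on either side were read for the called genes as a description. E50 and E95 means were no part of the contrast, but the spread within those ages entered the variance that decided the calls, so these shares are not independent of the choice of genes. Of the 173 genes higher at E70, 157 (90.8%) had all E95 libraries above all E50 libraries, against 20.4% of all genes tested. Of the 78 lower genes 69 (88.5%) had all E95 libraries below all E50 libraries, against 17.6%. Counted over every age, 19 of the 173 (11.0%) were higher at E70 than in any of the 15 libraries of other ages, against 0.705% of all genes. These included ACTN3, HAPLN1, the kinase PAK1, the cell adhesion gene CDH1 and the phosphatase PTPRK. The E70 values in this last share also chose the genes, so it is partly fixed by the choice.

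Peak lists added where m6A enrichment was recorded at each age. There was 1 list per age, with no replicate, and how its libraries were combined is not given in the sources used here; the fold of a peak is the authors' own. The lists held 7545 peaks at E60 and 8499 at E70, of which 84.0% and 73.1% shared at least 1 base with a peak of the other list. Of the genes tested that had a peak, 89.0% of the E60 genes and 81.2% of the E70 genes had one at both ages. Among genes tested, 461 had a peak at E60 only, 864 at E70 only, 3725 at both and 8141 at neither.

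Among genes with a peak at a single age, most calls lay in the direction of that age; this difference between the groups was not tested. Of the 461 with a peak at E60 only, 11 (2.39%) were lower at E70 and 4 (0.868%) higher. ENSSSCG00000035520 and ENSSSCG00000036044 are among these 11. Both were listed at 0 in every E70 library, which can be a failed estimate. The part of these zeros in the lack of an E70 peak was not tested. Of the 864 with a peak at E70 only, 28 (3.24%) were higher and 6 (0.694%) lower. With peaks at both ages the shares were 1.37% higher and 0.644% lower, and with none 1.11% and 0.454%, against the 1.31% and 0.591% of all genes. The bulk of these genes barely moved: the median changes were -0.04 for E60 only, 0.03 for E70 only, -0.01 for both and 0.01 for neither. Peaks below the median fold of their list were then left out. By this count 559 genes had a peak at E60 only, with 5 higher and 3 lower. At E70 only there were 806, with 16 higher and 6 lower. Genes counted as E60 only here can hold a lower-fold peak at E70, and the reverse, so these are not the same groups. On this count the E60 side did not lean towards falls. A gene must reach some level for a peak to be called, so peak status and level are not independent readouts.

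**Figure D5:**
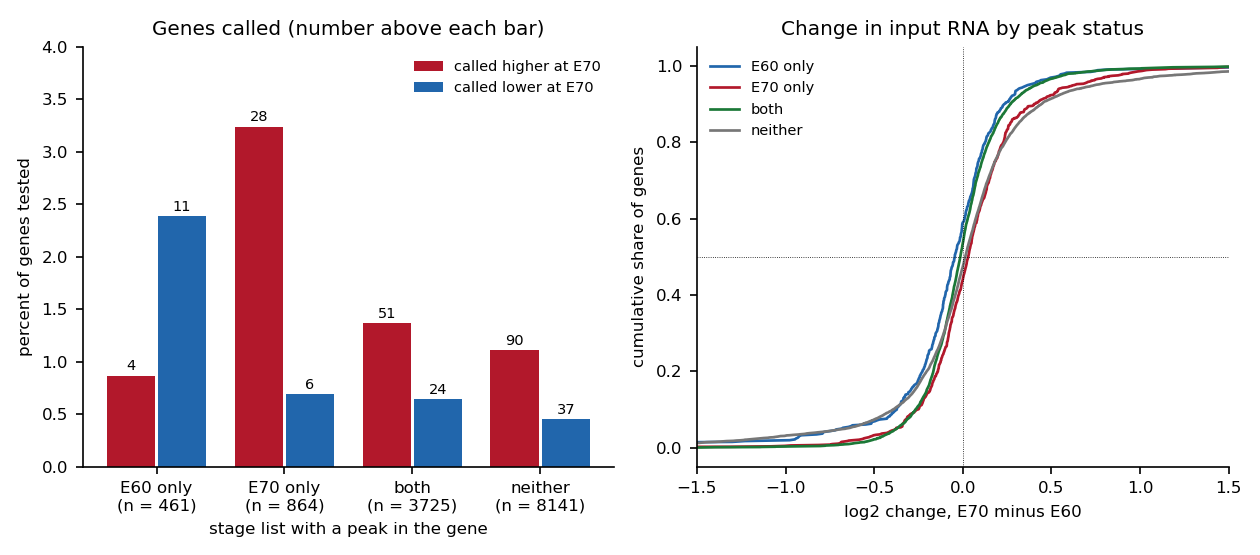
Left, the percent of tested genes called higher or lower at E70 by peak status, as bars from 0; right, the cumulative distribution of the log2 change for the same 4 groups. The bars differ, with 3.24% of the E70-only genes higher and 2.39% of the E60-only genes lower, while the 4 curves nearly coincide at medians of -0.04 to 0.03. The 2.39% includes 2 genes listed at 0 in every E70 library.

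The called genes of these groups were in part muscle genes. With a peak at E60 only, the named lower genes were DCX, KCND2, MYH15, KIF24, CACNA1G, STK39 and CHRNA1. With a peak at E70 only, higher genes included MYBPC2, RYR3, CACNA1S and PYGM, described above, the muscle protease CAPN3, the glycerol phosphate dehydrogenase GPD1, the Popeye protein POPDC2 of the muscle membrane, the Wnt inhibitor SFRP4 and the nuclear receptor NR1D2. Other called genes went against the age of their peak. PGAP4, TNFRSF13C, TFEB and ASB2 were higher with a peak at E60 only. CTSV, VANGL1, SLC22A23 and RCCD1 were lower with a peak at E70 only. ATP2A1 had peaks at both ages, 1 with a fold of 2.52 at E60 and 3 with a highest fold of 7.11 at E70.

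The peaks with the highest fold among these, lying within 1 coding block of at most 300 bases, are printed to show the marked sequence itself. They are the 3 highest for lower genes with a peak at E60 only and the 3 highest for higher genes with a peak at E70 only, read 5′ to 3′ on the transcript strand of Sscrofa11.1. Capitals mark GGACT, a form of the m6A consensus. For the E60 list they are
KIF24 (a kinesin of the centriole, chr10:32547188-32547487, plus strand, fold 4.73): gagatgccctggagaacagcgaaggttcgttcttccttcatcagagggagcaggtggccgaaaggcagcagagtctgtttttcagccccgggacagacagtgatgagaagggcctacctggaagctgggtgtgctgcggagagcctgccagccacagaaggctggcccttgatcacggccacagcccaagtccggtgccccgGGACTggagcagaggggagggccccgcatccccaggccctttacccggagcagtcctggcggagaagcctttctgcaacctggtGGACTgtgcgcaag
KCND2 (chr18:26622737-26622975, minus strand, fold 3.89): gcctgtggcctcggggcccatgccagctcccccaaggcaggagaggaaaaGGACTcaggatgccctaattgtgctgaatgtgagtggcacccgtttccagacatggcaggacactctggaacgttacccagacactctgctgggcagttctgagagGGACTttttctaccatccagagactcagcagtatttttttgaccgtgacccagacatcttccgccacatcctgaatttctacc
CACNA1G (a T-type calcium channel, chr12:26911117-26911327, plus strand, fold 3.76): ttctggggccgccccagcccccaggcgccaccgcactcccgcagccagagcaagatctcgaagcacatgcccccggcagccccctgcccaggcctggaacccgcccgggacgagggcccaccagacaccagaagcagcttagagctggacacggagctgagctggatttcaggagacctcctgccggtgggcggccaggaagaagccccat

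For the E70 list they are
NR1D2 (chr13:10787879-10787999, plus strand, fold 24.3): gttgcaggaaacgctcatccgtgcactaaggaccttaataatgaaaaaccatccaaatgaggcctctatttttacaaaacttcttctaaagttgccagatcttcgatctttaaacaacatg
PLIN4 (chr2:74323093-74323183, plus strand, fold 12.5): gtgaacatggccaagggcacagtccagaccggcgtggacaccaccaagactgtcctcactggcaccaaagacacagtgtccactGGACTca
RYR3 (chr7:80670387-80670657, minus strand, fold 5.07): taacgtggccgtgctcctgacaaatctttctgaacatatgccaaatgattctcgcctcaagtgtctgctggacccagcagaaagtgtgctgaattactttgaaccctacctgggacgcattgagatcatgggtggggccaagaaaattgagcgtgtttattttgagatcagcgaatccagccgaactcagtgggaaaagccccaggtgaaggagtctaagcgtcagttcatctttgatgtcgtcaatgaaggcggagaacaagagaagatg

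KIF24 and KCND2 each held 2 GGACT, PLIN4 held 1, and KIF24 and PLIN4 also held the reverse complement AGTCC, 2 and 1 times. The windows of CACNA1G, NR1D2 and RYR3 held neither. KIF24 stood at 4.45, 4.17 and 4.43 at E60 and at 1.4, 1.72 and 2.45 at E70, and CACNA1G at 11.3, 10.7 and 11.0 and then at 5.24, 6.47 and 6.19. Both were listed with a peak in all 4 lists from E33 to E60 and in neither later list. NR1D2 was at 2.76, 2.54 and 2.15 and then at 5.37, 4.68 and 3.99, with a peak at E70 and E95. RYR3, PLIN4 and MYBPC2 had a peak at E70 alone of the 6 lists.

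Peaks of genes marked at a single age were shorter and lay more often by the stop codon. Their median length was 120 bases for E60 only and 121 for E70 only, against 210 and 211 for the peaks of genes marked at both ages. Here and below, E60-only, E70-only and one-age peaks are grouped by gene, not by position. The peaks of shared genes thus include 668 at E60 and 1259 at E70 that overlapped no peak of the other list. The authors' log10 p-values, whose test is not given in the sources used here, were weaker for the one-age peaks. Their median was -6.24 for E60 only and -6.8 for E70 only, against -18.2 and -16.8 for the peaks of shared genes. Whether this bears on length, position or motif content was not tested. Within 200 bases of a stop codon lay 29.4% of the E60-only peaks (Wilson 95% interval 25.7 to 33.5) and 27.9% of the E70-only peaks (25.2 to 30.7), against 20.2% and 19.0% of the peaks of shared genes at E60 and E70. In coding sequence away from the stop codon lay 40.2% and 45.5%, against 59.9% and 60.6%. These intervals cover counting error only.

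GGACT was found on the transcript strand in 24.9% of the E60-only peaks (21.4 to 28.8) and 19.9% of the E70-only peaks (17.5 to 22.5), and in 32.9% of the peaks of shared genes at either age. The reverse complement AGTCC, searched in the same windows, was in 9.25% and 9.0% of the one-age peaks and in 19.6% and 21.1% of the others. Over all peaks GGACT was in 32.3% at E60 and 31.3% at E70. Since the one-age peaks were shorter, the motif was also counted per kilobase: 2.43 in E60-only, 1.79 in E70-only, and 1.74 and 1.63 in shared genes. The reversed motif came to 0.822, 0.765, 0.965 and 0.984, so GGACT was the denser of the pair in all 4 groups.

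Many genes with a peak in just one of the E60 and E70 lists were also listed at other ages. Of the E60-only genes 55.3% had a peak at E33 and 39.7% at E95, and of the E70-only genes 45.3% and 52.3%, against 90.6% and 91.0% of genes with a peak at both ages. Among one-age peaks, the highest folds at E60 were in ITPKA (24.5), MARCHF9 and SOCS3 (22.8 each), PRR14 (21.2, in the neighbouring FBRS by RefSeq) and ZNF263 (20.9). At E70 they were in GPATCH2L (25.6), KHDC4 (25.3), NR1D2 (24.3), TM2D2 (24.0) and RPS6KC1 (22.8). Of these 10 genes NR1D2 alone passed the test of level, at 0.70 on the log2 scale (adjusted p = 0.0145, limma).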

How the data were processed

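TPM per gene and library were deposited; per the submitters' processing notes, Trimmomatic, HISAT2 and Sscrofa11.1 were used, without roles or versions, and the quantifier and peak caller are not given in the sources used here. Per the file headers, each deposited peak list gives positions, a fold, a p-value and a log10 of it. The folds were used, medians of the log10 values are given, and the p-values and log10 values were checked against each other. Here each library was divided by its median-ratio factor, and log2(scaled TPM + 1) of all 18 input libraries was fitted in limma 3.58.1 (R 4.3.3) with 1 mean per age, 12 residual degrees of freedom and a mean-variance trend, on genes averaging 1 TPM or more. Changes on this scale understate those of low genes. Peaks were placed on RefSeq transcripts of Sscrofa11.1 with Python 3.11.15, pysam 0.24.0, pandas 2.3.3 and statsmodels 0.14.6 (Wilson intervals). The fit was tested on simulated data.

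Named genes were, in each direction, the 15 largest called changes with a symbol, leaving out genes listed at 0 throughout a single age. Others were called members of 22 gene lists and called genes listed at 0 throughout a single age. The one-age peaks added their called genes and the 5 highest folds of each age. The genes, the lists and the tests were chosen with earlier results of these data known. Of 418 list members 358 matched a gene. Replicate numbers did not pair the libraries (correlations of 0.017, -0.009 and 0.067, each under 0.1). Alternatives covered scaling, pseudocount, filter, libraries fitted, a replicate block and each library left out.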

Additional observations from a re-analysis of the deposited data

How the results depend on the processing

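The count of called genes (main: 251, 173 higher and 78 lower) moved most with scaling and with the libraries fitted. It was 15 (9 higher, 6 lower) on deposited TPM, 381 (55 and 326) after rescaling without the pair of most abundant genes, 65 (43 and 22) with the 6 libraries alone, 145 (102 and 43) at a minimum of 5 TPM, and 144 (27 and 117) on deposited TPM of the 6 libraries, an alternative chosen after seeing the data. With the replicate block it was 203 (148 and 55) over 18 libraries and 7 (3 and 4) over 6, where the numbers do not pair the samples. Leaving out 1 library gave 122 to 186 calls, 85 to 136 higher and 37 to 54 lower; the count was 122 without E70 replicate 3, 125 without E70 replicate 1, 154 without E60 replicate 1 and 166 without E60 replicate 2. Quantile scaling gave 275, pseudocounts of 0.1 and 0.5 gave 191 and 243, and no filter gave 282. Leaving out the libraries high in ENSSSCG00000032599 gave 300, 202 higher and 98 lower. Of 101 named called genes 0 reversed in any alternative run, and 4 passed in every run that tested them: MYO3B, SCNM1, ENSSSCG00000035520 and ENSSSCG00000036599. All but MYO3B are listed at 0 in every E70 library, which can be a failed estimate. They were not tested in the run that left out genes listed at 0 in one age. The other named genes lost the call in at least 1 setting. The losses were 89 on deposited TPM, 72 with 6 libraries, 38 after rescaling, 17 with the block over 18 libraries and 97 with the block over 6. Leaving out 1 library lost 25 to 47.

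Peak-status values moved as well. At a minimum of 5 TPM, 300 genes had a peak at E60 only (median change -0.061) and 543 at E70 only (median 0.026). With peaks at or above the median fold, 2083 genes had a peak at both ages, and the medians were -0.026 for E60 only and -0.0053 for E70 only. In that count a gene of a single age can hold a lower-fold peak at the other age. On deposited TPM the medians were -0.33 for E60 only, -0.24 for E70 only, -0.31 for both and -0.24 for neither. The causes of these shifts were not tested. Depth in reads is unknown, so no value carries a counting error, and levels near 1 TPM have no stated precision.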

Other observations

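Called genes outside the lists are given here as values; they were picked once their values were known. Other genes of their pathways were not counted. FRZB, a secreted Wnt-binding protein, was at 0.994, 0.481 and 1.15 scaled TPM at E60 and at 3.87, 3.02 and 3.69 at E70. SFRP4, of the same family, rose from 13.6, 11.7 and 7.65 to 28.4, 25.7 and 39.6, and NOTUM, an enzyme that removes the lipid of Wnt proteins, from 2.78, 5.96 and 5.53 to 17.6, 10.5 and 11.3. The ligand WNT5B was 2.23-fold higher. The E70 libraries were all above the E60 libraries in these 4 genes, with limma adjusted p of 0.000854 for FRZB, 0.0486 for SFRP4, 0.0381 for NOTUM and 0.0221 for WNT5B; none of the 4 passed on deposited TPM or with the 6 libraries alone.

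SLC2A4, the insulin-responsive glucose transporter of muscle, was at 1.22, 0.787 and 0.565 at E60 and at 4.52, 3.33 and 4.9 at E70 (limma, adjusted p = 0.0063). NMRK2, a muscle kinase of NAD synthesis, was 2.09-fold higher. TP63 and TP73, relatives of the tumour suppressor p53, were 2.75-fold and 6.02-fold higher from E60 means of 0.754 and 0.322. Among falls, CRABP2, which carries retinoic acid in the cell, went from 92.0, 87.0 and 96.9 to 60.2, 56.9 and 68.0, beside the fall of the retinol receptor STRA6. EVC and EVC2, partners in Hedgehog signalling at the cilium that lie on the same chromosome, fell 1.5-fold and 1.94-fold, from 5.4 ± 0.466 to 3.59 ± 0.0774 and from 3.87 ± 0.357 to 2.0 ± 0.257 (SD, n = 3).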
